A study of Mus musculus with 6 samples.

Results

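Polycomb repressive complex genes were examined in fully grown mouse oocytes from XY and XX females. The set held 10 genes: Ezh1, Ezh2, Eed, Suz12 and Jarid2 of Polycomb repressive complex 2 (PRC2), and Rnf2, Ring1, Bmi1, Pcgf1 and Pcgf6 of Polycomb repressive complex 1 (PRC1). Their members were the 28 probe sets, of 45037 on the array, that the platform annotation gives to one of these symbols alone; a probe set is a group of short probes that together report on one transcript. A total of 20 of the 28 passed a filter on low values, and with them 9 of the 10 genes, among 12442 genes tested. Ring1 did not pass.

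The study asked how stored mRNA differs between XY and XX oocytes, and its 6 arrays read RNA of 10 oocytes each, from 3 XX and 3 XY females, taken at the germinal vesicle (GV) stage of meiotic prophase. The XY group came from B6.Y(TIR) females, C57BL/6 mice with a Y chromosome from Tirano, whose XY animals can form ovaries, and the XX group from littermates of these females. All females were 25 to 29 days old and had received 5 IU of equine chorionic gonadotropin 45 to 47 hours earlier. XY oocytes carry a Y and lack a second X, so these 2 differences between the groups cannot be told apart here; oocytes of XO females were not analysed here. The arrays report relative mRNA levels in a pool, so less of a transcript in every oocyte and fewer oocytes that hold it cannot be told apart. All 13 oocyte markers checked, among them the zona pellucida genes and Gdf9, lay at or above the array median on all 6 arrays.

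Polycomb proteins keep developmental genes silent through marks on histones. PRC2 places methyl groups on lysine 27 of histone H3: Ezh2 or its relative Ezh1 is the enzyme, Eed and Suz12 are the subunits without which the enzyme does not work, and Jarid2 helps to bring the complex to chromatin. PRC1 attaches ubiquitin to histone H2A: Rnf2 (also called Ring1B) or Ring1 is the ligase, and a Pcgf protein, such as Bmi1, Pcgf1 or Pcgf6, partners it and sets which form of PRC1 is built. In growing oocytes these marks are laid down on silent genes, and part of the methylation of lysine 27 passes to the embryo, where it holds the maternal copy of a few imprinted genes silent.

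Suz12 and Pcgf1 fell in XY oocytes, and none of the 9 tested members rose. Suz12 was lower by 0.73 ± 0.14 on the log2 scale (SE, limma adjusted p = 0.0194), and Pcgf1 by 0.93 ± 0.20 (adjusted p = 0.0280). These 2 make up 22.2% of the 9, where 5.34% of all 12442 genes were called lower and 7.86% higher; with 9 genes the share rests on few calls. At an unadjusted p under 0.05, limma had 4 members lower (Suz12, Pcgf1, Jarid2 and Rnf2) and 0 higher, where 1657 of all 12442 genes were lower and 2346 higher. The XX and XY values did not overlap for 6 of the 9, all lower in XY, against 16.2% of all genes lower and 22.6% higher without overlap. All 9 lay among the brightest of 3 equal groups of genes by mean level, in which 6.03% of genes were called lower and 20.0% were lower without overlap. The median log2 change of the 9 was -0.37, beside 0.07 for all genes and 0.05 for the brightest group.

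Values are log2 of the quantile-normalized intensity plus 9, a constant that damps the changes of dim probe sets and sets a floor of 3.17. Each set of probes binds with its own strength, so the order of levels between probe sets is that of their signals, used here to choose the brightest probe set of a gene and to group genes by signal, and not that of mRNA amounts. Tested 1 probe set at a time, over the 22997 that passed the filter, 7 of the 20 member probe sets fell and 0 rose, where 5.41% of all fell and 5.08% rose; at an unadjusted p under 0.05 there were 12 lower and 0 higher, against 3522 and 3437 of the 22997. Those 7 were 5 of Suz12, 1 of Jarid2 and that of Pcgf1, and probe sets of one gene read the same transcripts and do not count as independent. Of the 28, 6 are of the _s_at kind and 1 of the _x_at kind, whose probes may also bind other, similar transcripts.

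**Figure D1:**
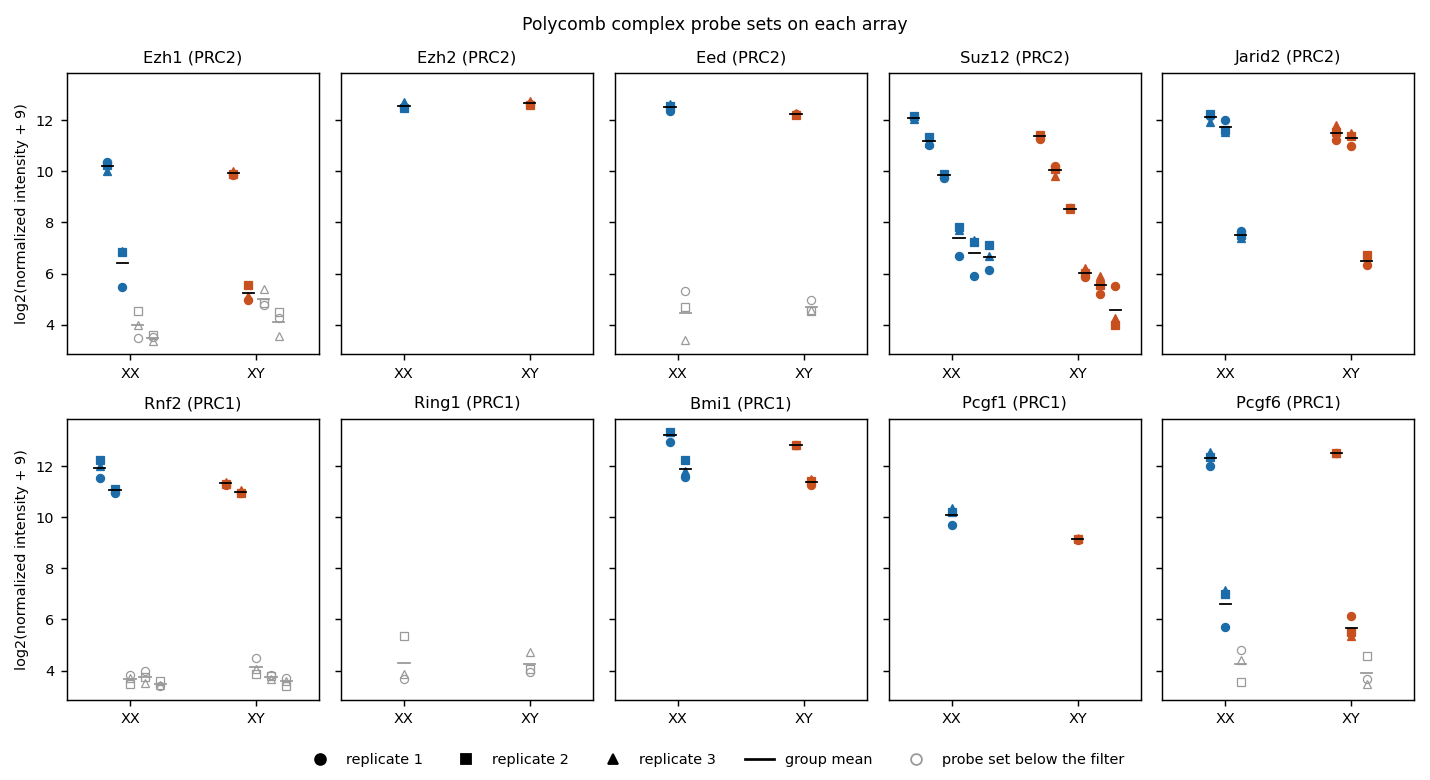
Value of every Polycomb complex probe set on each array, as log2(normalized intensity + 9), in one panel per gene, with XX in blue, XY in orange, symbols for the replicates, bars for group means and grey open symbols for the 8 probe sets below the filter. All 6 Suz12 probe sets sit lower in XY, while the values of Ezh2 overlap between the groups.

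Suz12 had the most kept probe sets of the members and the most that moved. All 6 passed the filter, all 6 had XY values below every XX value, and 5 passed the test. Of all 22997 kept probe sets, 18.1% were lower in XY without overlap. Every kept probe set of Jarid2 (3), Bmi1 (2), Eed (1) and Pcgf1 (1) was also lower without overlap. The Suz12 probe set with the highest level, 1420021_s_at, read 12.09, 12.16 and 12.05 in XX 1 to XX 3 and 11.26, 11.42 and 11.43 in XY 1 to XY 3. Before normalization its intensity averaged 4937 ± 938 over the XX arrays, against 2268 ± 251 over the XY arrays (SD, n = 3 each). Those averages also hold differences in the brightness of whole arrays, whose trimmed means were 207, 289 and 332 in XX and 262, 194 and 204 in XY. The arrays of each group lay closer to one another on this probe set than to any array of the other group.

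The Suz12 probe set 1452364_at read 9.74, 9.89 and 9.89 in the XX arrays and 8.56, 8.56 and 8.51 in the XY arrays. It fell by 1.30 ± 0.15 (SE, limma adjusted p = 0.00717), and it also passed over all 45037 probe sets with no filter (adjusted p = 0.0306), the only member probe set to do so; 0.651% of all were called lower there. The probe set 1427253_s_at went from 11.03, 11.36 and 11.12 to 10.22, 10.08 and 9.83, and fell by 1.12 ± 0.18 (adjusted p = 0.0154). So 3 bright probe sets, each with tight replicates, gave changes of unequal size, from -0.73 to -1.30. The change of 1452364_at exceeded that of 1420021_s_at in size, though the exact test cannot bring this past 0.05 here: their difference within an array ran from 2.16 to 2.35 in XX and from 2.70 to 2.92 in XY, without overlap (exact two-sided permutation p = 0.1, and 3 against 3 allows no smaller; 0.167 after adjustment over 5 such pairs, chosen after the values were seen).

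The other Suz12 probe sets were dim. The probe set 1449661_at read 6.67, 7.81 and 7.72 in XX and 5.88, 6.02 and 6.23 in XY and fell by 1.36 ± 0.31 (adjusted p = 0.0387). The probe set 1420020_at fell by 2.06 ± 0.44 (adjusted p = 0.0300), with XY values of 5.53, 3.98 and 4.25 that came close to the floor. The probe set 1420022_s_at had a change of -1.27 ± 0.39 and did not pass (adjusted p = 0.0794). On each of these 3, XX 1 was the lowest XX array and the nearest to XY.

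The DNA upstream of the 3 core PRC2 genes is shown because Suz12 fell while its partners Ezh2 and Eed did not pass the test. The sequences are the 250 bases before the annotated start of each gene, from RefSeq on build GRCm38.p6, on the strand of the gene. Capitals mark an E2F-type motif (TTTCCCGC or TTTGGCGC) and the CCAAT box (CCAAT), each searched on both strands; the 2 motifs share no base here. Suz12 lies at chr11:79992856-79993105 on the plus strand, Ezh2 at chr6:47595031-47595280 on the minus strand and Eed at chr7:89980977-89981226 on the minus strand.
Suz12: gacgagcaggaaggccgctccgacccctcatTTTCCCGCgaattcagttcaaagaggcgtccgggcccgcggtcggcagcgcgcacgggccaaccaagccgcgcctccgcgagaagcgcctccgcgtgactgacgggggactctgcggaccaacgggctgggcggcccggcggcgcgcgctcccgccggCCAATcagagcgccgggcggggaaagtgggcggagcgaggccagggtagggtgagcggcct
Ezh2: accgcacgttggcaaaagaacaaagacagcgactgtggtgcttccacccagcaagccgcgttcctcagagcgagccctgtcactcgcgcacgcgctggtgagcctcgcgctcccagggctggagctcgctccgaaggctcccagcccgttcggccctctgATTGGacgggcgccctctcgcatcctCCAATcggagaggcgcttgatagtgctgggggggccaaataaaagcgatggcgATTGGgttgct
Eed: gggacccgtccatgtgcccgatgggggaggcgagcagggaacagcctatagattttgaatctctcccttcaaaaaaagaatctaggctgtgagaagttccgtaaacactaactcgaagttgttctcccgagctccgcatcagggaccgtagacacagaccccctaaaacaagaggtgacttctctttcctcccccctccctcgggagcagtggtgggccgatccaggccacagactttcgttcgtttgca
The Suz12 window held 1 E2F-type match and 1 CCAAT box, that of Ezh2 held 3 CCAAT boxes and no E2F-type match, and that of Eed held neither. Of 32851 windows of the same length, 1.30% held an E2F-type match and 33.8% a CCAAT box. Among the 9 members with a window in the table, which gave 10 windows, that of Suz12 alone held the E2F-type letters. Pcgf1, the other member called lower, had no window and was not searched. A match describes these letters only.

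Ezh2, the main methyltransferase of PRC2, did not pass. Its single probe set read 12.50, 12.48 and 12.73 in XX and 12.64, 12.61 and 12.74 in XY. The groups overlapped, and the log2 change of 0.09 had a 95% interval of -0.25 to 0.43. That sign turned with median scaling (-0.35) and with no scaling at all (-0.19), settings in which the median over all genes was itself -0.27 and -0.12.

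Ezh1, the other methyltransferase, did not pass either, and its probe sets disagreed. The brightest, 1449023_a_at, read 10.35, 10.26 and 10.00 in XX and 9.87, 9.90 and 10.03 in XY, a change of -0.27 ± 0.16 (SE, limma adjusted p = 0.278) with overlapping groups. The dim 1418290_a_at had a change of -1.18 ± 0.39 (adjusted p = 0.0938 over the kept probe sets), with XX 1 at 5.49, inside the XY range of 4.97 to 5.57, and XX 2 and XX 3 at 6.83 and 6.89. Below the filter, 1429629_at went the opposite way, from 3.49, 4.55 and 3.98 to 4.77, 4.85 and 5.40, without passing over all probe sets (adjusted p = 0.167).

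Eed, the subunit that binds the methylated histone, had a small difference that did not pass. The probe set 1448653_at read 12.36, 12.55 and 12.65 in XX and 12.26, 12.22 and 12.29 in XY. The groups did not overlap, but XX 1 lay only just above XY 3, and the change of -0.26 ± 0.15 had an adjusted p of 0.253 by limma. Its other probe set, 1453830_at, was below the filter.

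Jarid2, which recruits PRC2, read lower in XY on all 3 of its probe sets, and 1 of them passed. The probe set 1450710_at went from 7.68, 7.49 and 7.38 in XX to 6.35, 6.71 and 6.44 in the XY group, and fell by 1.02 ± 0.18 (SE, adjusted p = 0.0186 over the kept probe sets). The brightest, 1422698_s_at, which stood for the gene, read 12.16, 12.26 and 11.93 in XX and 11.22, 11.52 and 11.80 in XY. Here XY 3 came close to XX 3, and the change of -0.61 ± 0.19 did not pass (adjusted p = 0.0798). The third, 1422697_s_at, had -0.43, with XX 3 and XY 3 both at 11.52. Jarid2 as a gene passed in 6 of 19 alternative settings, among them no scaling (-0.98, adjusted p = 0.0442) and its 3 probe sets averaged (-0.68, adjusted p = 0.0426).

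**Figure D2:**
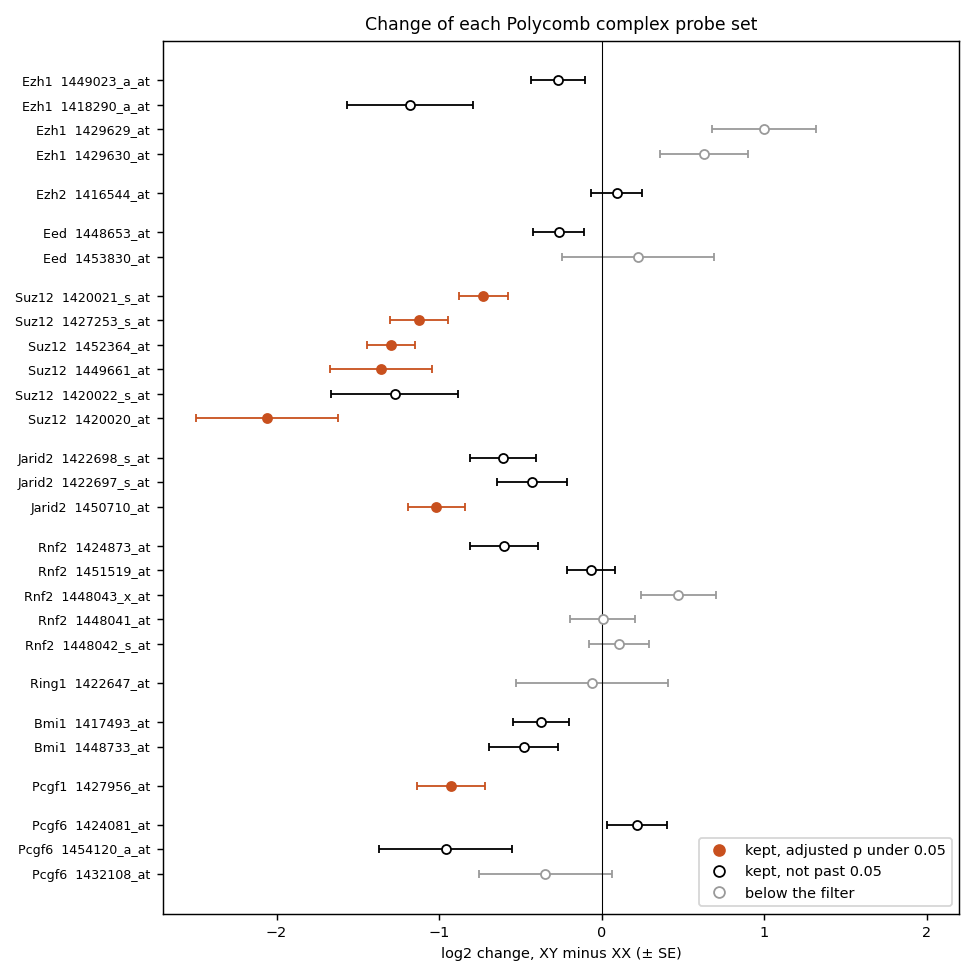
Log2 change of each Polycomb complex probe set, XY minus XX, with its SE; filled orange points passed limma's adjusted p of 0.05 over the 22997 kept probe sets, open black points did not, and grey points lay below the filter. The 5 called Suz12 probe sets run from -2.06 to -0.73, and no kept probe set lies above 0.22.

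In PRC1, Pcgf1 fell. Its protein partners Rnf2 in the variant form of PRC1 that Kdm2b brings to CpG islands. The single probe set, 1427956_at, read 9.68, 10.19 and 10.35 in XX and 9.10, 9.14 and 9.19 in XY, and before normalization averaged 1285 ± 586 over XX against 492 ± 73.8 over XY (SD, n = 3 each). These averages too hold differences in the brightness of whole arrays. The XY arrays lay together, and XX 1 was the XX array nearest to them. The change of -0.93 became -1.12 without XX 1 and had an adjusted p of 0.0766 to 0.0856 without any other single array.

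Rnf2, the main ubiquitin ligase of PRC1, gave unlike readings. The probe set 1424873_at read 11.54, 12.22 and 12.00 in XX and 11.26, 11.31 and 11.38 in XY. The groups did not overlap, but XX 1 lay nearer to XY 3 than to XX 3, and the change of -0.60 ± 0.20 (limma adjusted p = 0.0875) did not pass. Without XX 1 it passed, at -0.78 (adjusted p = 0.0133). The probe set 1451519_at read 10.96, 11.11 and 11.11 in XX and 10.96, 10.95 and 11.06 in XY, a change of -0.07 with a 95% interval of -0.42 to 0.28. The difference of the 2 within an array ran from 0.58 to 1.11 in XX and from 0.30 to 0.36 in XY, without overlap (exact permutation p = 0.1, the smallest possible; 0.167 after adjustment over the 5 pairs). The other 3 Rnf2 probe sets lay below the filter, all under 4.5.

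Ring1, the relative of Rnf2, was read by 1 probe set, 1422647_at, which lay below the filter with 3.68, 5.36 and 3.87 in XX and 3.95, 4.05 and 4.73 in XY. The groups overlapped near the floor, and these values do not give a change.

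Bmi1, a Pcgf subunit of the canonical complex, read lower in XY on both of its probe sets without passing. The probe set 1417493_at read 12.94, 13.34 and 13.32 in XX and 12.84, 12.82 and 12.81 in XY, a change of -0.37 ± 0.16 (limma adjusted p = 0.164). XX 1 again lay nearest to XY, and without it the change was -0.50 (adjusted p = 0.0289). The probe set 1448733_at had a change of -0.48 ± 0.21 (adjusted p = 0.180 over the kept probe sets).

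Pcgf6, a Pcgf subunit of a variant PRC1 at germline genes, did not pass, and its kept probe sets went opposite ways. The bright 1424081_at read 12.00, 12.35 and 12.57 in XX and 12.51, 12.53 and 12.53 in XY, a change of 0.22 ± 0.18 (adjusted p = 0.436), and the dim 1454120_a_at had -0.96 ± 0.41 (adjusted p = 0.164 over the kept probe sets). The groups overlapped on both. The gene's sign turned with no scaling (-0.08), with median scaling (-0.24) and with its kept probe sets averaged (-0.37).

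The arrays within XX were not alike, and this touched most of the kept member probe sets. XX 1 was the lowest of the 3 XX arrays on 14 of the 20 and the highest on 3. Of these 20, 6 are of Suz12 and do not count as independent. The same count was not made over all kept probe sets, so it cannot be read as a trait of the members. XX 1 also had the lowest median correlation with its own group among all the arrays. The log2 ratio of the 3' to the 5' control of Actb, a measure of RNA quality, was 5.53 in XX 1, inside the XY range of 5.20 to 5.90, and lower in the other XX arrays (3.87 in XX 2) (exact permutation p = 0.2 between the groups). The same ratio for Gapdh was 4.20 in XX 1, inside the XY range of 4.04 to 4.39. It was 3.03 in XX 2 and 3.53 in XX 3. With the Actb ratio as a covariate 0 members passed, where Suz12 had a change of -0.69 (adjusted p = 0.101), Pcgf1 of -0.58 (adjusted p = 0.166) and the Suz12 probe set 1452364_at of -1.21 (adjusted p = 0.0631). Of all genes 159 were higher and 77 lower there. Without XX 1, 4 members fell, which were Suz12 (-0.72), Pcgf1, Rnf2 and Bmi1. Calls grew over all genes there too, to 2026 higher and 1281 lower of 12087.

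**Figure D3:**
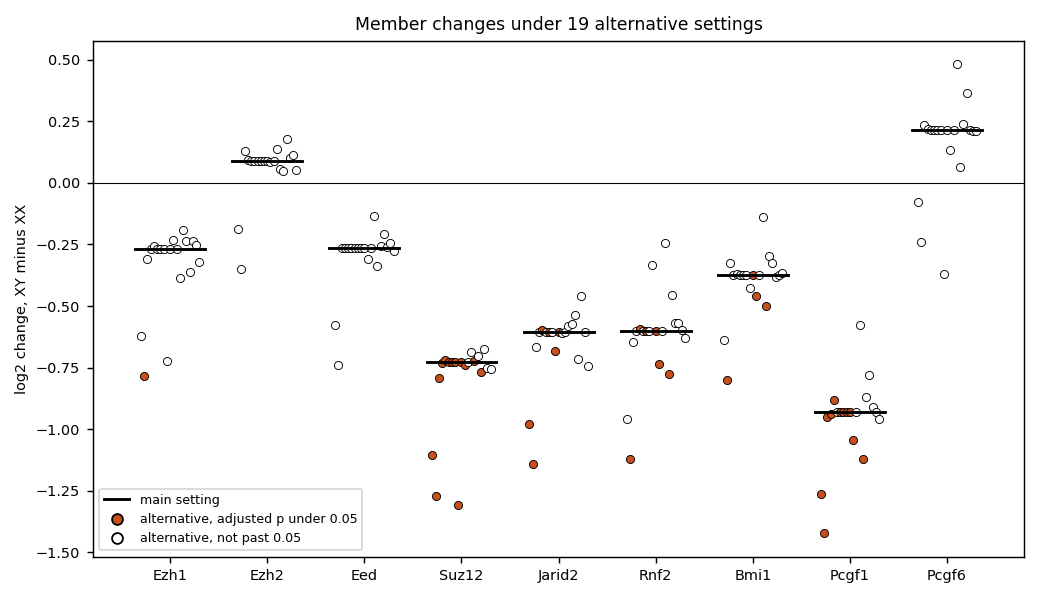
Log2 change, XY minus XX, of the 9 tested members in the main setting (black bar) and under each of 19 alternative settings (points, filled where limma's adjusted p passed 0.05 and the change was negative). Suz12 and Pcgf1 lie below 0 throughout, from -1.31 to -0.67 and from -1.42 to -0.58, and Ezh2 and Pcgf6 lie on both sides of 0.

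Suz12 was negative in all 19 alternatives and passed in 13, and Pcgf1 was negative in all 19 and passed in 11. For Suz12, leaving out XX 2 gave an adjusted p of 0.0612, leaving out XY 1 gave 0.0703, XY 2 gave 0.0699 and XY 3 gave 0.0633. The Suz12 probe set 1452364_at passed in 17 of 18, all but the Actb covariate, and so with any single array left out. The call of 1427253_s_at ended without XX 2, XY 2 or XY 3 (adjusted p from 0.0541 to 0.0551), and that of the Jarid2 probe set 1450710_at without XX 2, XX 3, XY 1 or XY 3 (from 0.0503 to 0.0633). Those of the Suz12 probe sets 1420021_s_at and 1449661_at ended without any array but XX 1 (from 0.0684 to 0.118), and that of 1420020_at without XX 2, XX 3, XY 2 or XY 3 (from 0.0855 to 0.0954). Relative to the median of all genes, Suz12 stood at -0.80 in the main setting, -0.99 with no scaling and -0.97 with trimmed mean scaling. The same measure for Ezh2 was 0.02, -0.07 and -0.05.

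Of 51 genes that work with or against the complexes, 46 were tested. Of these 2 rose (4.35%) and 6 fell (13.0%), where 7.86% of all genes rose and 5.34% fell, and their median log2 change was -0.03. Of the 6 that fell, 4 are X-linked, and 25.3% of all 375 X-linked genes tested fell, against 5.34% of all genes. Among the 40 autosomal genes of the list 2 rose and 2 fell, 5% each way, which is no more than the shares of all genes. The calls of Cbx2, Asxl2 and Rbbp4 ended without any single array other than XX 1 (adjusted p from 0.0790 to 0.137), that of Bcorl1 without XX 2, XX 3, XY 1 or XY 3 (0.0958 to 0.112), that of Ezhip without XY 1 or XY 3 (0.0574 and 0.0582) and that of Hdac1 without XY 2 or XY 3 (0.0544 and 0.0522).

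Among PRC1 partners, 1 of 27 rose (3.70%) and 3 fell (11.1%), where 7.86% of all genes rose and 5.34% fell. Scml2, an X-linked gene for a PRC1-associated protein of the germ line, read 10.28, 11.33 and 11.09 in XX and 8.85, 9.09 and 9.07 in XY. It fell by 1.90 ± 0.28 (limma adjusted p = 0.00960) and passed in all 19 alternatives. X-linked Bcorl1, a relative of the variant PRC1 subunit Bcor, fell by 0.99 ± 0.24 (adjusted p = 0.0389), but its other kept probe set had 0.20. Cbx2, an autosomal chromobox subunit that reads the mark of PRC2, fell by 0.77 ± 0.19 (adjusted p = 0.0427), from 10.26, 10.52 and 10.76 to 9.81, 9.50 and 9.93, and passed in 8 of 19 alternatives. The histone deacetylase gene Hdac1 rose by 0.83 ± 0.14 (adjusted p = 0.0126), from 7.27, 7.30 and 7.34 to 8.05, 8.17 and 8.19; with no scaling it had 0.62 (adjusted p = 0.190). Kdm2b, which partners Pcgf1, had a change of 0.00.

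Among PRC2 partners, 1 of 9 rose and 1 fell, where 7.86% of all genes rose and 5.34% fell. Ezhip, an X-linked gene whose protein inhibits the Ezh2 enzyme, read 11.40, 11.40 and 11.66 in XX and 10.47, 10.74 and 10.55 in XY and fell by 0.90 ± 0.16 (limma adjusted p = 0.0156); it passed in 15 of 19 alternatives. Rbbp4, a histone-binding subunit, rose by 0.58 ± 0.14 (adjusted p = 0.0392) on its brightest probe set, of the _x_at kind, while another of its 3 had -0.38, and it had 0.31 with no scaling (adjusted p = 0.512). X-linked Rbbp7 had -0.15 and did not pass.

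Among enzymes that oppose Polycomb and their cofactors, 0 of 10 rose and 2 fell, where 7.86% of all genes rose and 5.34% fell. At an unadjusted p under 0.05 by limma, 5 were lower and 0 higher, against 1657 and 2346 of 12442 genes. X-linked Kdm6a, which removes methyl groups from lysine 27, fell by 1.56 ± 0.24 (adjusted p = 0.0110), and both of its kept probe sets went the same way. Asxl2, a cofactor of the H2A deubiquitinase Bap1, fell by 0.58 ± 0.15 (adjusted p = 0.0431), from 7.93, 7.84 and 8.08 to 7.45, 7.30 and 7.37, and passed in 9 of 19 alternatives. Kdm6b, the autosomal relative of Kdm6a, had -1.12 ± 0.35 and did not pass (adjusted p = 0.0734), and its other kept probe set had 0.01.

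**Figure D4:**
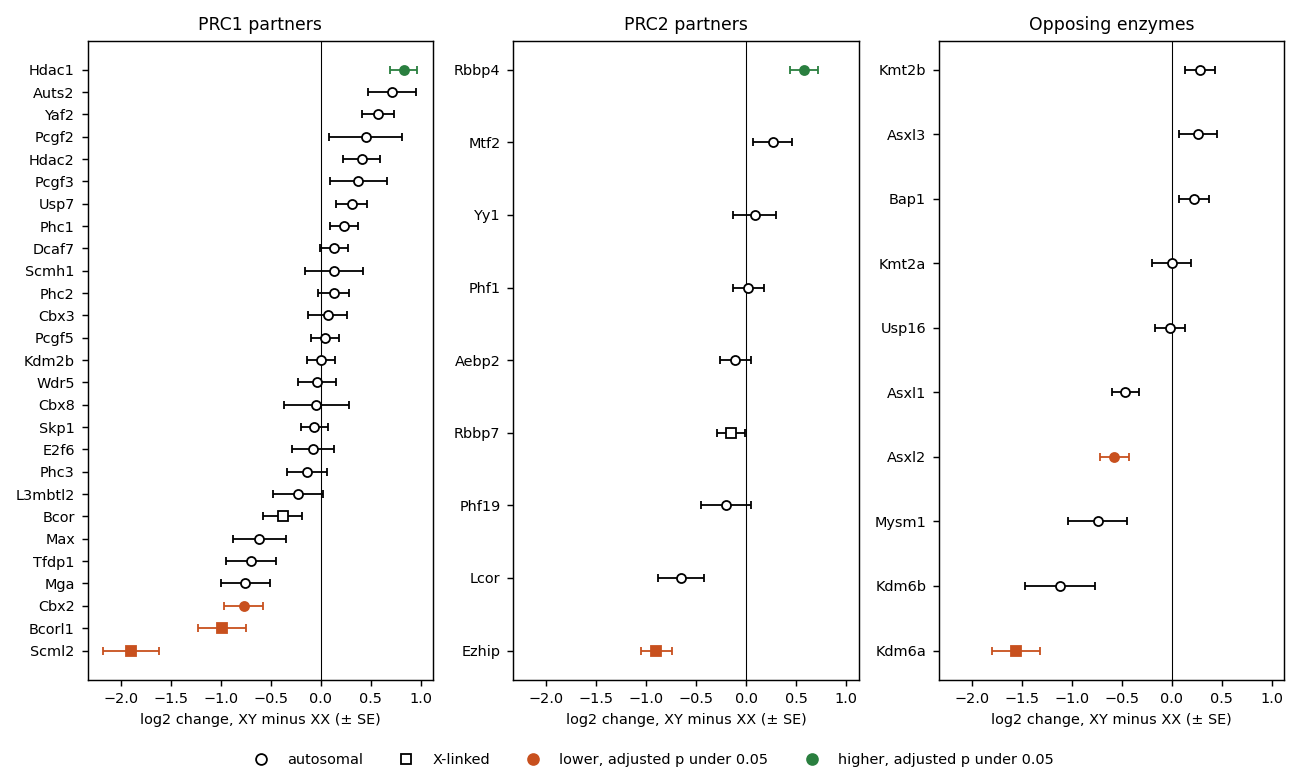
Log2 change, XY minus XX, with its SE for the 46 tested genes that work with or against the Polycomb complexes, by role; squares are X-linked genes, and filled points passed limma's adjusted p of 0.05, orange lower and green higher. Of the 6 genes lower in XY, 4 are squares.

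Genes that Polycomb holds silent in many tissues were mostly dim in these oocytes, and of 81 listed 26 were tested, 22 of them in the dimmest group when genes are split into 3 by level. Of the 26, 8 rose and 0 fell (12 higher and 0 lower at an unadjusted p under 0.05 by limma), with a median log2 change of 0.66. In that dimmest group 6.24% of genes were called higher and 3.66% lower, with a median of 0.10, and 669 of its 4148 genes were higher and 446 lower at an unadjusted p under 0.05. Of the 8 called, Hoxa5, Tbx3 and Isl1 lay in the middle group, where 11.3% of genes were called higher and 6.34% lower, with a median of 0.07. The filter passes a dim gene that is high in 1 group more easily, and 9 of the 26 reached the array median on more XY than XX arrays, against 5 the other way. Of the 8 called, 6 reached it on all 6 arrays and 2 on more XY than XX arrays. With a filter on the mean over all arrays, 8 of 26 were also called higher. Over all 120 probe sets of the list with no filter, 3 rose and 0 fell, where 0.719% of all probe sets rose, and the median was 0.16, that of all probe sets -0.00; at an unadjusted p under 0.05 there were 19 higher and 1 lower, against 4121 and 4240 of the 45037.

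Of 39 Hox genes, which lay out the body axis in the embryo, 10 were tested and 3 rose, where 7.86% of all genes were called higher. Hoxd8 went from 5.40, 5.20 and 5.74 in XX to 7.15, 6.76 and 7.96 in XY, a rise of 1.84 ± 0.32 (limma adjusted p = 0.0147). Hoxc6 rose by 1.37 ± 0.21 (adjusted p = 0.0110), from 5.63, 5.30 and 5.98 to 6.86, 7.22 and 6.94, and its other kept probe set had 1.61. Hoxa5 rose by 1.14 ± 0.28 (adjusted p = 0.0415), with XX 1, at 8.27, close to XY 1, at 8.52. The probe sets of Hoxc6 and Hoxa5 are of the _x_at kind. Hoxc6 passed in 18 of 19 alternatives and Hoxd8 in 17, where Hoxd8 missed without XX 2 (adjusted p = 0.0547), and Hoxa5 passed in 8, none of them without XX 2, XX 3, XY 1, XY 2 or XY 3 (0.0655 to 0.121).

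Of 36 other developmental regulators, 13 were tested and 4 rose, where 7.86% of all genes were called higher. The LIM homeobox gene Isl1 rose by 0.87 ± 0.15 (limma adjusted p = 0.0158), from 6.66, 6.54 and 6.62 to 7.40, 7.68 and 7.36, the T-box gene Tbx3 by 1.01 ± 0.25 (adjusted p = 0.0420) and the LIM homeobox gene Lhx2 by 0.79 ± 0.21 (adjusted p = 0.0483). The eye and brain regulator Pax6 rose by 0.97 ± 0.25 (adjusted p = 0.0469), but its other kept probe set had -0.07 and stood for the gene when any XY array was left out (changes of 0.01, -0.20 and -0.02 without XY 1, XY 2 and XY 3). Isl1 passed in 12 of 19 alternatives, Tbx3 in 9, Lhx2 in 8 and Pax6 in 7 of 18. Leaving out XX 2 ended the calls of Isl1 (adjusted p = 0.0550), Tbx3 (0.122), Lhx2 (0.118) and Pax6 (0.0718). So did leaving out XY 2 for Isl1 (0.0591), XX 3, XY 1 or XY 2 for Tbx3 (0.101 to 0.112), each of XX 3 and the XY arrays for Lhx2 (0.0801 to 0.137), and XX 3 for Pax6 (0.0527).

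Of 6 genes imprinted through maternal methylation of lysine 27, 3 were tested. Xist, which silences an X in the soma, rose by 0.81 ± 0.21 (limma adjusted p = 0.0460) and passed in 6 of 18 alternatives, none of them without XX 2, XX 3 or an XY array (0.0655 to 0.133), while Gab1 had 0.23 on one kept probe set and -0.71 on the other, and Smoc1 had -0.44.

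Markers of other ovarian cells were read beside these dim genes. The summed normalized intensity of 5 theca and stroma markers ran from 82.5 to 137 in XX and from 228 to 359 in XY. Cyp17a1, Col1a1 and Pdgfra were below the filter. Of the 2 that passed the filter, Dcn had a change of 1.85 and Col1a2 of 0.08, and neither was called. That of 15 granulosa and cumulus markers ran from 1497 to 1822 in XX and from 1703 to 1906 in XY, where 1 of the 12 that passed the filter was called, Inha, higher by 1.58 (adjusted p = 0.0475). Of those not called, Kitl (-0.63, limma adjusted p = 0.0715), Nr5a2 (-0.16) and Inhbb (-0.07) had negative changes. All the others that passed the filter had positive ones, such as Fshr (0.89) and Star (0.76). Amh, Inhba and Tnfaip6 were below the filter. For the 3 blood and immune markers the sum was 59.2 to 68.1 in XX and 80.7 to 99.0 in XY, with Cd68 higher by 0.59 (adjusted p = 0.0392), and for the 2 of endothelium 48.7 to 88.3 and 31.7 to 69.7. The 13 oocyte markers summed to 100630 to 106327 in XX and 89373 to 94813 in XY, and 2 of them were called, X-linked Bmp15 at -1.34 (adjusted p = 0.0101) and Mos at -0.85 (adjusted p = 0.0272), the direction of the called members. Of those not called, Figla (0.40) and Oosp1 (0.11) had positive changes. All the others had negative ones, from -0.74 for H1f8 to -0.04 for Ooep. The part of the other ovarian cells in the values of the target genes was not tested.

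**Figure D5:**
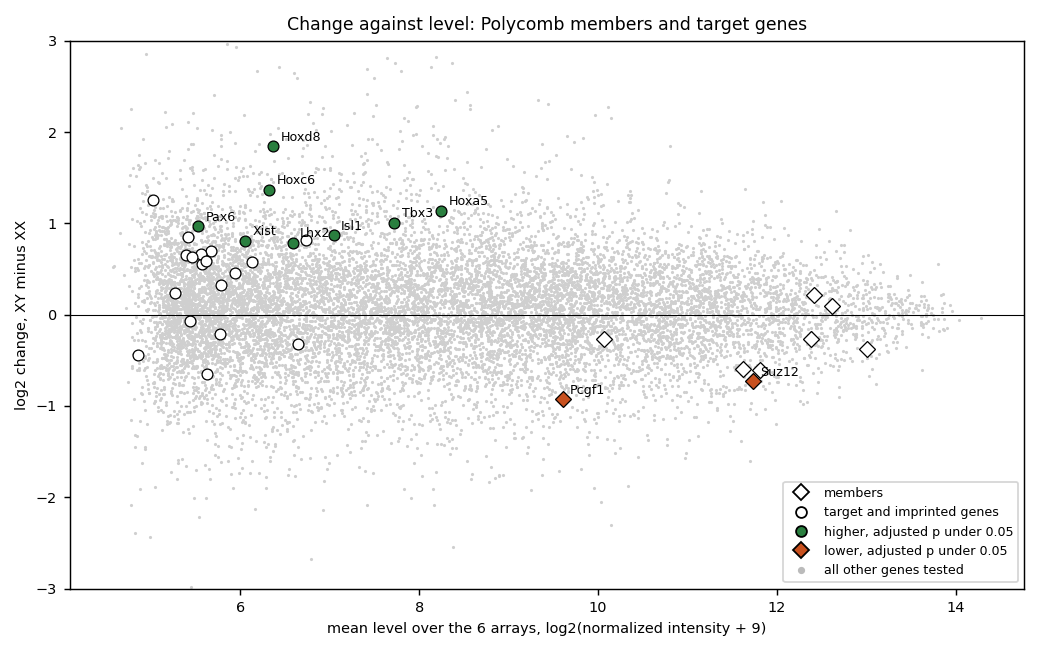
Log2 change, XY minus XX, against mean level, log2(normalized intensity + 9), for the 9 tested Polycomb complex members (diamonds), the 26 tested target and imprinted genes (circles) and all other genes tested (grey; 8 genes lie beyond the plotted range of 3). Filled symbols passed limma's adjusted p of 0.05: the 2 called members lie below 0 and the 8 called target genes above 0.

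The genes whose values over the 6 arrays were most like those of Ezh2 were 1810021B22Rik (Pearson's r = 0.978), Lrmda (0.963) and Slc35a1 (0.963). Those most like Rnf2 on its brightest probe set were Naa40 (r = 0.997), Slc4a10 (0.997) and Dipk2a (0.996). These are the highest values among all genes tested, over 6 arrays that share their group difference and scaling, and they describe likeness only.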

How the data were processed

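Probe set values of 6 Affymetrix 3' expression arrays were used, 3 of XX and 3 of XY oocytes, labelled in 2 cycles from oligo(dT) primers, per the labels' protocols. The authors deposited linear intensity values from MAS5, per the submitters' processing notes; its version and target are not given in the sources used. Array medians of the deposited values ran from 24.5 to 31.4 and trimmed means from 194 to 332, so the 45037 non-control probe sets were quantile-normalized. Quantile normalization hides any change in total mRNA.

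A single gene symbol was listed for 34945 probe sets, several for 932 and none for 9160; 34741 matched RefSeq's GRCm38.p6 gene table by gene ID. Values were log2(intensity + 9), 9 being the 25th percentile of the deposited values. A probe set was kept at or above the array median on at least 3 of 6 arrays (22997), and each gene was read by its brightest kept probe set (12442 genes). The groups were compared with lmFit and eBayes of limma 3.58.1 in R 4.3.3, with Benjamini-Hochberg adjustment over all genes, or all probe sets, at 0.05. Groups of 3 limit the precision. The protocols give 3 females per group without tying arrays to females, so p-values measure the spread between these samples. Alternatives changed the scaling, the constant added, the filter, averaging of probe sets, the variance prior, weights for arrays, a replicate block, the Actb ratio as covariate, and left out each array. Steps were tested on simulated data.

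The members and the gene lists were chosen with earlier results of these data known. Named were all members, list genes past the adjusted p, or the 2 with the smallest p where none passed, and the 3 genes most like Ezh2 and Rnf2. Kdm2b, Rbbp7, Kdm6b, Gab1 and Smoc1 and the other-cell markers were named after their values were seen. No per-sample column was left unused.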

Additional observations from a re-analysis of the deposited data

How the results depend on the processing

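Counts by limma give genes higher in XY first and lower second. All genes had 472 and 529 unscaled, 482 and 1622 scaled to the median, 1423 and 586 scaled to the trimmed mean, 566 and 347 with no filter, 1961 and 1303 with array weights, 159 and 77 with the Actb covariate, 1391 and 968 with a pseudocount of 50, 1277 and 908 of 8466 with a 70th percentile filter, 1421 and 993 with a trended robust variance, against 978 and 665 of 12442. Leaving out 1 array gave 282 to 2026 and 190 to 1281. Members lower numbered 6 with median scaling, 1 with no filter, 4 with array weights, a pseudocount of 50 or a 70th percentile filter, 5 with a trended robust variance, 0 with the Actb covariate, and 0 to 4 with an array left out. Member probe sets lower numbered 13 with median scaling, 1 with no filter, 11 with array weights or the trended variance, 0 with the covariate, and 1 to 12 with an array left out; of all kept probe sets 2857, 293 (unfiltered), 2646 (weights), 1950 (trended) and 5 (covariate) were lower, against 1244. Accessory genes had 0 higher unscaled, 0 and 11 scaled to the median, 1 higher scaled to the trimmed mean or with probe sets averaged, 4 higher with a pseudocount of 50 or the trended variance, 1 and 3 with no filter, 4 and 11 with array weights, 0 and 1 with the covariate, and 0 to 5 and 2 to 11 with an array left out. Target genes higher numbered 4 unscaled or scaled to the median, 3 with no filter or a pseudocount of 1, 2 with the covariate, and 1 to 11 with an array left out. Signs turned for Ezh2 (unscaled -0.19, median scaling -0.35) and Pcgf6 (unscaled -0.078, median scaling -0.24, probe sets averaged -0.37). Relative to the median of all genes, Ezh2 stood at -0.07 unscaled and -0.08 with median scaling, and Pcgf6 at 0.04 and 0.03. The averaged Pcgf6 value joins its 2 kept probe sets, at 0.22 and -0.96. Pax6 turned too (-0.20 without XY 2 and -0.02 without XY 3, and up to 1.14 without XX 3). Without an XY array another probe set stood for Pax6. The cause of the turns with scaling was not tested. For the 9 members, the 16 called list genes and the 7 called member probe sets, 589 of 596 values kept their sign, and 180 lost a call and 17 gained one.

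With the replicate number as a block, all genes had 424 higher and 255 lower, members 0 lower (Suz12 adjusted p = 0.0676), member probe sets 1 lower, accessory genes 0 higher and 2 lower, and target genes 2 higher. Same-numbered arrays had correlations of -0.10, 0.00 and -0.04 between their deviations from the group means, and the other pairs ran from -0.06 to 0.10. With 3 arrays per group these values cannot show whether same-numbered arrays share more than a number, and the labels do not say.

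The small groups limit these counts. XX 1 was the lowest XX array on most kept member probe sets, a count not made over all probe sets, and its Actb ratio lay inside the XY range. With this ratio as a covariate 0 members passed, and without XX 1 there were 4 lower. The part of RNA quality in the member changes was not tested beyond these fits. Signal near the floor limits Ring1, the dim probe sets and most target genes.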
